A study of Mus musculus with 4 samples.

Results

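A set of 60 genes of DNA replication and mitosis was followed in growth plate chondrocytes with and without the primary cilium. Members were found by the gene symbol that the array annotation gives each probe set, the unit of measurement of an Affymetrix array. Of the 60 genes, 58 had at least 1 probe set that names no other gene, with 141 of the 45037 non-control probe sets and 58 of the 18193 genes in all. They were split into 25 genes of S phase, with 64 probe sets, and 33 of G2 and mitosis (G2/M), with 77. Hjurp, which loads the centromere histone, has 5 probe sets that name other genes too and is given apart, a Tyms probe set shared with a pseudogene was left out, and no value of Ccnb1 was analysed here.

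The cells without cilia were proliferative zone chondrocytes of Col2aCre;Ift88fl/fl mice (Cilia-deleted 1 and 2, 2 arrays, called Ift88-deleted here), against those of control mice (Control 1 and 2, 2 arrays), all at postnatal day 7 and on the C57BL/6 background. Ift88 is a subunit of the transport machinery that builds the cilium, and Cre under a Col2a promoter deletes it in the cartilage lineage. The labels give the controls as wild-type and do not say whether they carried the floxed allele or Cre, nor how many mice, of which sex, made up a sample. The zone was cut with a needle from 40 µm sections of tibia and femur, and 50 ng of total RNA was amplified before labelling, so cells next to the zone can be in a sample. In such bulk tissue, fewer dividing cells and less of a transcript per cell cannot be told apart.

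Growth plate chondrocytes of the proliferative zone divide in columns before they enlarge, and this division feeds the lengthening of the bone. In S phase, origins loaded with the Mcm2 to Mcm7 ring are fired, and polymerases held by the Pcna clamp copy the DNA. In G2 and mitosis, cyclin-bound Cdk1 and the Aurora and Polo kinases drive spindle assembly, and the anaphase-promoting complex with Cdc20 and Ube2c then destroys cyclins and securin. E2F factors drive transcription of many replication genes, and the DREAM and MuvB complexes act on mitotic promoters through the short CHR element, often beside CCAAT boxes bound by NF-Y.

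Control 1 stood above the other 3 arrays in most of these genes, and in most the difference between the 2 controls was larger in size than that between the groups. These are unlike measures, since the first sets 1 array against 1 and the second a mean of 2 against a mean of 2. The first was also the larger in 66.8% of all genes. Values are on the log2 scale with 0 at each probe set's own 4-array median, averaged over the probe sets of a gene, and thus show differences between arrays but not how abundant a transcript was. The G2/M genes had medians of -0.03 and -0.05 in Ift88-deleted 1 and 2, against 0.40 in Control 1 and -0.07 in Control 2. The S-phase genes had medians of -0.02 and -0.02 in the Ift88-deleted arrays, against 0.25 in Control 1 and -0.06 in Control 2. Over all genes the 4 medians lay between -0.01 and 0.01. Control 1 was the highest array for 30 of the 33 G2/M genes (90.9%) and 20 of the 25 S-phase genes (80%), where it was the highest for 32.4% of all genes, and it was the lowest for 0 of the 58.

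**Figure D1:**
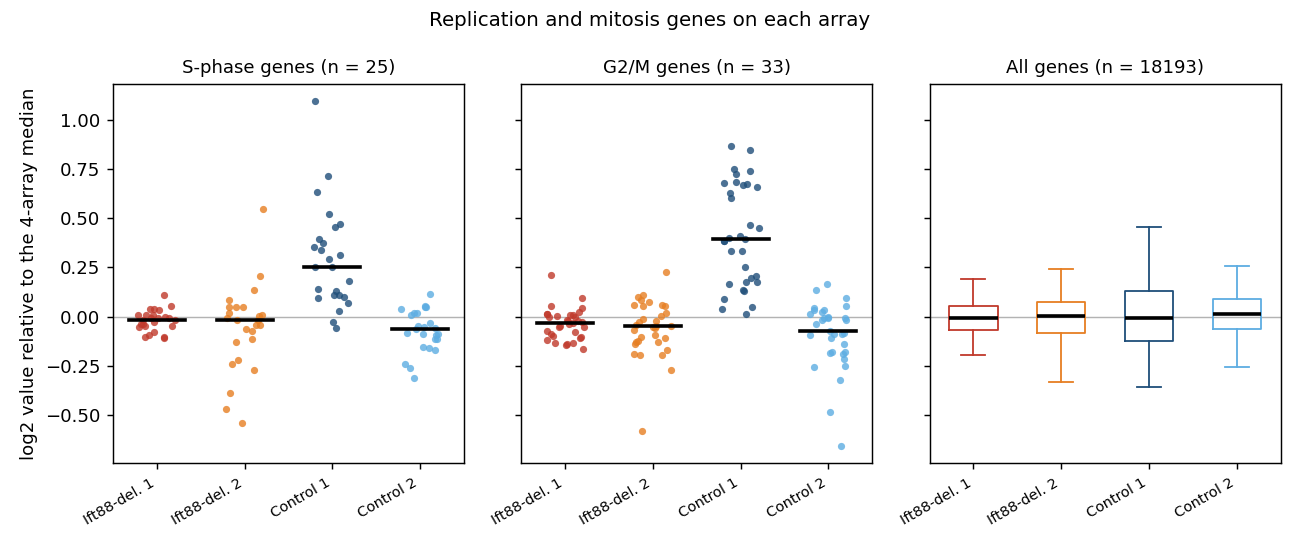
Log2 values relative to the 4-array median of the 25 S-phase genes, the 33 G2/M genes and all 18193 genes on each array, with a point per gene and a black line at the median (left and middle) or a box for the quartiles with whiskers at the 5th and 95th percentiles (right). The members lie high in Control 1, with medians of 0.25 and 0.40. In the other 3 arrays the medians lie between -0.07 and -0.02, and single genes between -0.66 (Nuf2, Control 2) and 0.55 (Fen1, Ift88-deleted 2). Centring on the 4-array median sets the 2 middle values of each probe set around 0, so nearness to 0 is partly built in.

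The promoters of 8 genes described here are shown with the elements named above, which only some of the members hold in this window. The RefSeq promoter table (GRCm38.p6) held 53 of the 60 genes. In the 250 bases before the start, both strands were searched for TTTGAA (CHR), CCAAT, and TTTCGCGC, TTTGGCGC, TTTCCCGC or TTTGCCGC (E2F). Matches can overlap one another, as do a CCAAT match on each strand in Ube2c and the E2F matches on each strand in Mcm5. The 24 windows of S-phase genes came from 21 genes. The 33 of G2/M genes came from 32, with Ccnb1 and Hjurp among them and more than 1 window for Ect2. An E2F match was in 8 of the S-phase windows (33.3%) and in 1 of the G2/M windows (3.03%), that of Cdk1, against 1.86% of all 32851. CHR was in 11 G2/M windows (33.3%) and 3 S-phase windows (12.5%), against 16% of all. CCAAT was in 25 G2/M windows (75.8%) and 15 S-phase windows (62.5%), against 33.8% of all, and 17 G2/M windows (51.5%) held at least 2, against 10.1%. Below are the 200 bases before the start, 5′ to 3′ on the strand of the gene, with every such match in capitals.
Ube2c, chr2:164769729-164769928, plus strand: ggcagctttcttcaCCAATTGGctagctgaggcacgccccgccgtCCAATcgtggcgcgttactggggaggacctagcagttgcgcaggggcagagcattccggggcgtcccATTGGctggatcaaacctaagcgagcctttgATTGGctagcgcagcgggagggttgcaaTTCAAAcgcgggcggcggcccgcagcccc
Mki67, chr7:135716380-135716579, minus strand: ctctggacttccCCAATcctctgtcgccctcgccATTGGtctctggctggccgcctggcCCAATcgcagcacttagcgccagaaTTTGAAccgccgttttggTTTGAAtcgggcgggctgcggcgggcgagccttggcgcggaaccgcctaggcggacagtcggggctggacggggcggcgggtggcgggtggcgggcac
Cdk1, chr10:69352913-69353112, minus strand: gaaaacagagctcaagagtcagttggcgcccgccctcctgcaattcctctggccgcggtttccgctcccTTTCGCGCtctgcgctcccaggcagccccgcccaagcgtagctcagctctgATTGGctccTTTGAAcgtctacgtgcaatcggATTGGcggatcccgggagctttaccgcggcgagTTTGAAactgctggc
Cdca8, chr4:124936918-124937117, minus strand: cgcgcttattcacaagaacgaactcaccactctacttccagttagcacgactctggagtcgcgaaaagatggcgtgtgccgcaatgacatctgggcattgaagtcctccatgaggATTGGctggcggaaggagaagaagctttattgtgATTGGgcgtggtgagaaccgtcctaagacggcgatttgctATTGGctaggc
Mcm5, chr8:75109309-75109508, plus strand: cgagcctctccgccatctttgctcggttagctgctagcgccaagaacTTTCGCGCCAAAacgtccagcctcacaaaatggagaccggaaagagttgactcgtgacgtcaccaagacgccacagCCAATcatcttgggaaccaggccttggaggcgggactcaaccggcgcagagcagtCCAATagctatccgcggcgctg
Mcm6, chr1:128359706-128359905, minus strand: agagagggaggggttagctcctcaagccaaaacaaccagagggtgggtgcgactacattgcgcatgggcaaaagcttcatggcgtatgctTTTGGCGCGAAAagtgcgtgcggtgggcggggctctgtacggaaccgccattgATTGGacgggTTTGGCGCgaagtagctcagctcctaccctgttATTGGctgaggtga
Cdc6, chr11:98907951-98908150, plus strand: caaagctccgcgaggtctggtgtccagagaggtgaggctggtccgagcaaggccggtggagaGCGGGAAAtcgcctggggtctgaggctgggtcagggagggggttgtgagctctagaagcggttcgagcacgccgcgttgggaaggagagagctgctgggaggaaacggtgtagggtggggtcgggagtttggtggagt
Rfc4, chr16:23127731-23127930, minus strand: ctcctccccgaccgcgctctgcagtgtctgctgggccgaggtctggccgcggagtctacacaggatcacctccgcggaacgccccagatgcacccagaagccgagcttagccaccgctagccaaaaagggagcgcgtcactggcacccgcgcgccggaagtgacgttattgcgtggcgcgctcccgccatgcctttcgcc
Ube2c and Mki67 thus hold CHR and CCAAT together, Cdk1 holds all 3 motifs, Cdca8 holds CCAAT alone, Mcm5 and Mcm6 hold E2F and CCAAT, Cdc6 holds E2F alone, and Rfc4 holds none of them in this window. Rfc4 is shown because it had the largest gap between the controls.

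The comparison of Ift88-deleted with control arrays asks whether cilium loss changes the division program of the zone, and limma called 0 of the 58 genes. Adjusted p values (Benjamini-Hochberg over all 18193 genes) were between 0.770 and 1, where 0.011% of all genes passed at 0.05. At an unadjusted p under 0.05, 4 members were lower (Mcm5, Ccna2, Ube2c and Mki67) and 0 higher. That is 6.9% of the members, where 3.68% of all genes were lower by that measure. The G2/M genes had a median difference of -0.26 and the S-phase genes of -0.06, against -0.01 for all genes. Below 0 were 30 of 33 (90.9%) and 18 of 25 (72%), against 51.9% of all genes. Set against Control 2 alone, that is without Control 1, the medians were 0.04 and 0.04, against -0.03 for all genes. Then 14 of 33 and 10 of 25 were below 0, against 10159 of all 18193 genes, and the sign turned in 24 of the 58 genes. Without Control 2 the medians were -0.47 and -0.27, against 0.01 for all genes, with 31 of 33 and 21 of 25 below 0, which was not counted over all genes. Since Control 1 was above Control 2 in most members, the direction of such moves was fixed beforehand, here and below, and tests nothing. The groups did not overlap in 11 G2/M and 6 S-phase genes that were lower (29.3% of the members, 18.6% of all genes) and in 1 that was higher, Rrm1 (1.72% of the members, 14.7% of all genes).

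The gap between the controls exceeded the difference between the groups in size in 49 of the 58 genes (84.5%), against 66.8% of all genes. Control 1 minus Control 2 was above 0 in 32 of 33 G2/M genes and 24 of 25 S-phase genes, with medians of 0.46 (1.38-fold) and 0.34 (1.26-fold), against -0.01 for all genes. It reached 1.5-fold in 15 G2/M genes (45.5%) and 4 S-phase genes (16%), where 4.14% of all genes did. The 2 Ift88-deleted arrays differed from each other by medians of 0.02 in G2/M and 0.02 in S phase for Ift88-deleted 1 minus Ift88-deleted 2, against -0.01 for all genes. These medians are of signed differences, which can cancel. Single genes ran from -0.27 to 0.45 in G2/M and from -0.66 to 0.50 in S phase. The mean of the 2 Ift88-deleted arrays fell between the 2 controls in 30 of the 58 genes (51.7%), against 45.3% of all genes. It was below both in 23 and above both in 5, against 5405 and 4551 of all 18193 genes. A single array against a single array allows no test, so these gaps are descriptions.

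**Figure D2:**
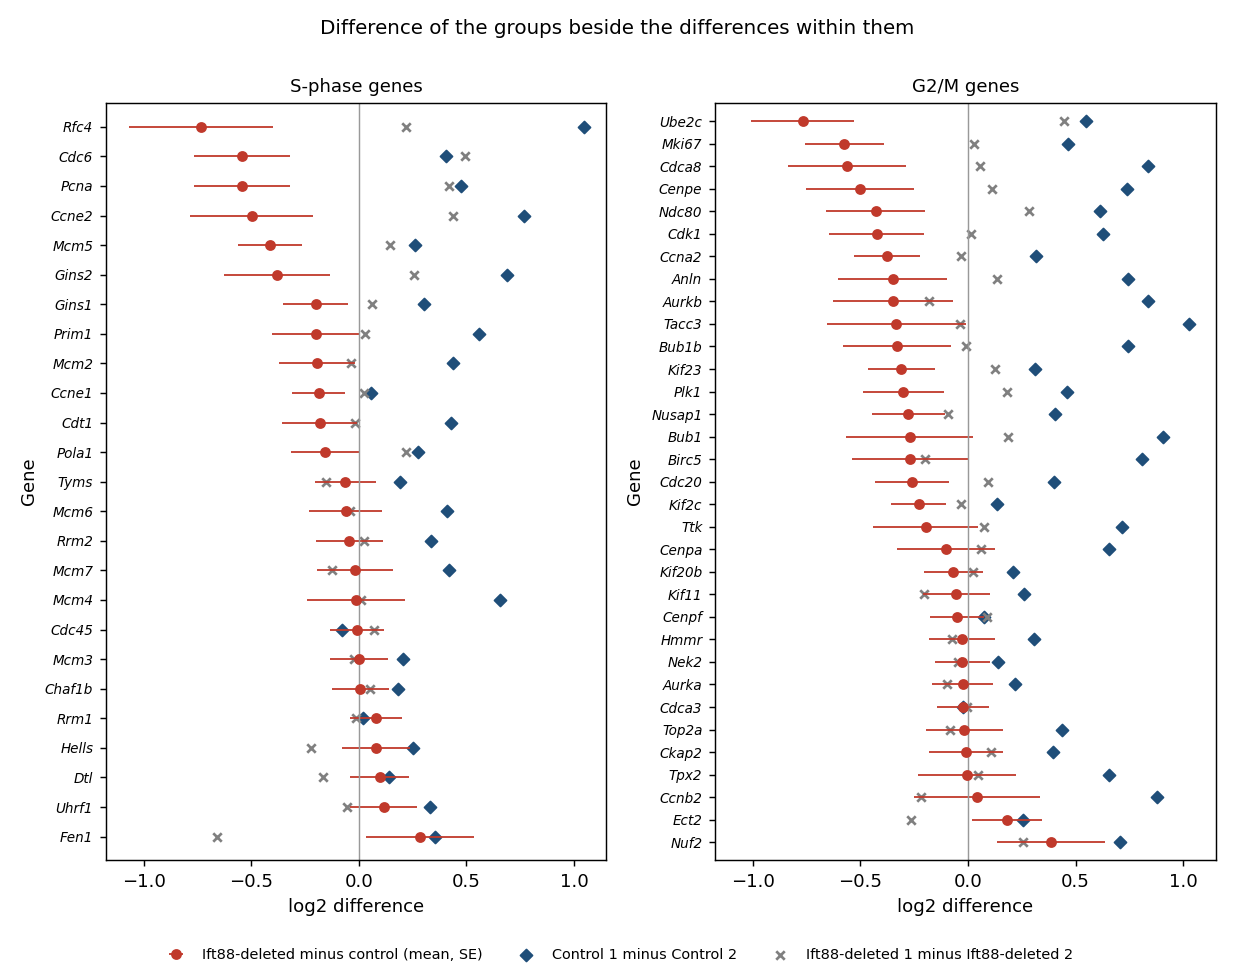
For each S-phase gene (left) and G2/M gene (right), the log2 difference of Ift88-deleted minus control with its SE (red circles), of Control 1 minus Control 2 (blue diamonds) and of Ift88-deleted 1 minus Ift88-deleted 2 (grey crosses). The diamonds lie to the right of 0 for 56 of the 58 genes and reach 1.04 in Rfc4, while the red circles run between -0.77 in Ube2c and 0.38 in Nuf2.

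Among origin licensing genes, Control 1 was highest in 8 of 8, with a gap between the controls of 0.21 to 0.66. Mcm5, a subunit of the helicase ring, was at -0.10 and -0.24 in the Ift88-deleted arrays, against 0.37 and 0.11 in the control arrays. The groups did not overlap, and the difference of -0.41 (SE 0.15, n = 2 per group, limma adjusted p = 0.819) kept its sign without Control 1 (-0.28). Cdc6, which loads the ring on origins, was at -0.05 and -0.54, against 0.45 and 0.05. Here too the groups were apart (difference -0.54, SE 0.22, adjusted p = 0.830), but Ift88-deleted 2 lay 0.50 below Ift88-deleted 1. The difference was -0.30 without Ift88-deleted 2 and -0.34 without Control 1.

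The rest of the ring showed no such separation. Mcm2 was at -0.08 and -0.04 in the Ift88-deleted arrays, against 0.35 and -0.08 in the control arrays. Mcm4 was at 0.01 and -0.01, against 0.34 and -0.31. In both genes Control 1 alone was high and the groups overlapped, and the differences of -0.19 (SE 0.18) and -0.01 (SE 0.23) were at 0.02 and 0.31 without Control 1. Mcm3, Mcm6 and Mcm7 had differences between -0.06 and 0.00, and Cdt1, the partner of Cdc6 in loading, -0.18, which was 0.03 without Control 1.

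Genes that fire origins and start synthesis followed Control 1 with 1 exception. Gins2, of the GINS complex in the active helicase, was at 0.04 and -0.22 in the Ift88-deleted arrays, against 0.63 and -0.06 in the control arrays, and Prim1, the primase that makes the RNA primer, was at 0.01 and -0.02, against 0.47 and -0.09. Both overlapped between groups, and the differences of -0.38 (SE 0.25) and -0.20 (SE 0.20) were at -0.04 and 0.08 without Control 1. Cdc45, the other helicase partner, varied little and had its highest value, 0.02, in Control 2. Gins1 had a difference of -0.20 with groups apart, and Pola1, the catalytic subunit of polymerase alpha, of -0.16, which were -0.05 and -0.02 without Control 1.

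Among genes of the sliding clamp, members went both ways. Rfc4, a subunit of the clamp loader, was at -0.05 and -0.27 in the Ift88-deleted arrays, against 1.10 and 0.05 in the control arrays. Its difference of -0.73 (SE 0.34, adjusted p = 0.869) was the largest in S phase, and so was its gap between the controls, 2.06-fold, so that -0.21 was left without Control 1. Pcna, the clamp itself, was at -0.05 and -0.47, against 0.52 and 0.05, with groups apart (difference -0.54, SE 0.22, adjusted p = 0.830), and the difference was -0.30 without Control 1 and -0.33 without Ift88-deleted 2. Fen1, the flap nuclease that trims Okazaki fragments, stood high in a single array, Ift88-deleted 2 (0.55), against -0.11 in Ift88-deleted 1 and 0.11 and -0.24 in the controls, and its difference of 0.29 was -0.04 without Ift88-deleted 2. Dtl, the adaptor that directs Cdt1 to degradation on the clamp, had a difference of 0.10.

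Nucleotide supply and replication-coupled chromatin genes had differences between -0.06 and 0.12. Rrm1 and Rrm2, the subunits of ribonucleotide reductase, were at 0.08 and -0.04, and Tyms, thymidylate synthase, at -0.06. The hemimethylated-DNA reader Uhrf1 (0.12), the helicase Hells (0.08) and the histone chaperone subunit Chaf1b (0.01) lay at or above 0 with overlap between the groups, and without Control 2 Uhrf1 and Hells were at -0.05 and -0.05. Of the cyclins E, which with Cdk2 start S phase, Ccne2 was at 0.05 and -0.39 in the Ift88-deleted arrays, against 0.71 and -0.05 in the control arrays. Ccne1 was at -0.10 and -0.13, against 0.10 and 0.04. The groups overlapped for Ccne2 (difference -0.50, SE 0.29, and -0.12 without Control 1) and were apart for Ccne1 (-0.19, SE 0.12, adjusted p = 0.939).

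In G2/M, the cyclin and Cdk1 genes held both a pair that was lower in the Ift88-deleted arrays and one that followed the controls alone. Cdk1, the mitotic kinase, was at -0.05 and -0.07 in the Ift88-deleted arrays, against 0.68 and 0.05 in the control arrays. Ccna2, cyclin A2, was at -0.14 and -0.11, against 0.41 and 0.09. The groups were apart in both, with differences of -0.42 (SE 0.22, adjusted p = 0.898) for Cdk1 and -0.38 (SE 0.15, adjusted p = 0.830) for Ccna2, which without Control 1 were -0.11 and -0.22. Ccnb2, cyclin B2, was at -0.11 and 0.11, against 0.40 and -0.48, so that both Ift88-deleted values lay between those of the controls (difference 0.04, SE 0.29).

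Every one of the 7 mitotic and checkpoint kinase genes was highest in Control 1, and the groups overlapped in each. Aurkb, the kinase of the chromosomal passenger complex, was at -0.11 and 0.07 in the Ift88-deleted arrays, against 0.75 and -0.09 in the control arrays. Plk1, the Polo kinase, was at 0.01 and -0.17, against 0.45 and -0.01. Bub1, of the spindle checkpoint, was at 0.09 and -0.09, against 0.72 and -0.18. Their differences of -0.35 (SE 0.28), -0.30 (SE 0.19) and -0.27 (SE 0.30) became 0.07, -0.07 and 0.18 without Control 1. Bub1b and Ttk, both of the same checkpoint, had gaps between the controls of 0.74 and 0.72, and Aurka and Nek2, which act at centrosomes, of 0.22 and 0.14.

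**Figure D3:**
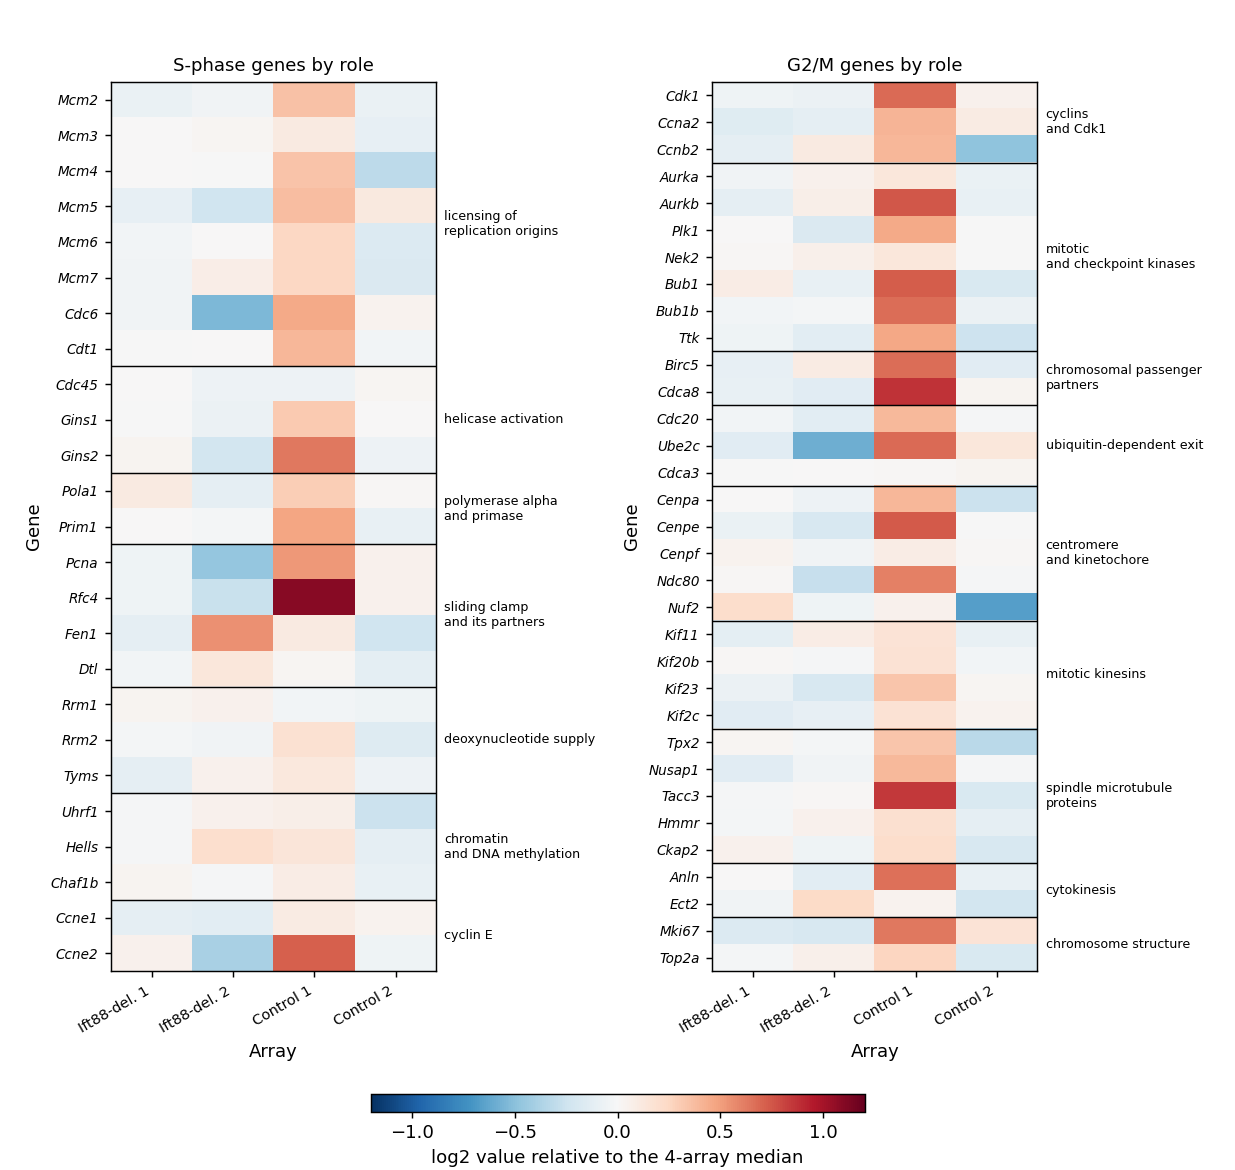
Log2 value relative to the 4-array median (colour, blue low and red high) of each S-phase gene (left) and G2/M gene (right), by role, on the 2 Ift88-deleted and the 2 control arrays. The column of Control 1 is the reddest in both panels, with 1.10 in Rfc4 and 0.87 in Cdca8, and Ube2c (-0.58), Cdc6 (-0.54) and Pcna (-0.47) are low in Ift88-deleted 2.

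The largest difference of all members was that of Ube2c, the ubiquitin-conjugating enzyme of the anaphase-promoting complex. It was at -0.14 and -0.58 in the Ift88-deleted arrays, against 0.68 and 0.14 in the control arrays. The groups were apart (1.70-fold lower, log2 difference -0.77, SE 0.24, 95% interval -1.36 to -0.18, limma adjusted p = 0.770), and without Control 1 the difference was -0.49. Cdc20, the activator of the same complex, was also lower with groups apart (-0.26, and -0.06 without Control 1), and Cdca3, a mitotic entry factor, differed by -0.02. The passenger subunit Cdca8, borealin, was at -0.09 and -0.14, against 0.87 and 0.03 (difference -0.56, SE 0.27, adjusted p = 0.881). Survivin, Birc5, was at -0.10 and 0.10, against 0.67 and -0.14, with overlap, and without Control 1 its difference was 0.14 and that of Cdca8 -0.15.

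Mki67, the gene of the proliferation marker Ki-67 that coats mitotic chromosomes, was lower in both Ift88-deleted arrays than in either control. It was at -0.16 and -0.19 in the Ift88-deleted arrays, against 0.63 and 0.16 in the control arrays. The difference was -0.57 (SE 0.18, 95% interval -1.02 to -0.13, limma adjusted p = 0.779), and -0.34 without Control 1. Top2a, the topoisomerase that untangles sister chromatids and also a common marker of cycling cells, was at -0.02 and 0.06, against 0.25 and -0.18, with overlap between the groups. Its difference was -0.02 (SE 0.18), and 0.20 without Control 1, and whether it differs from that of Mki67 was not tested.

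Centromere and kinetochore genes held differences of both signs of the G2/M list. Cenpe, the kinetochore motor, was at -0.08 and -0.19 in the Ift88-deleted arrays, against 0.74 and 0.00 in the control arrays, with groups apart by a small margin (difference -0.50, SE 0.25, adjusted p = 0.887, and -0.13 without Control 1). Ndc80, which binds spindle microtubules, was at 0.01 and -0.27, against 0.60 and -0.01. Nuf2, its partner in the same complex, was at 0.21 and -0.05, against 0.05 and -0.66, so the 2 subunits differed by -0.43 (SE 0.23) and 0.38 (SE 0.25), with neither passing. Without Control 1 they were at -0.12 and 0.74, and without Control 2 at -0.74 and 0.03. Cenpa, the centromere histone, and Cenpf had differences of -0.10 and -0.05, each a mean over probe sets of both signs. That of Cenpa was 0.23 without Control 1. The 5 probe sets that name Hjurp among other genes had gaps between the controls from -0.27 to 0.86.

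Spindle, kinesin and cytokinesis genes were led by Tacc3, a protein of spindle microtubules, with the second largest gap between the controls. It was at -0.02 and 0.02 in the Ift88-deleted arrays, against 0.85 and -0.18 in the control arrays, a gap of 2.04-fold between the controls and a difference between groups of -0.33 (SE 0.32), which turned to 0.18 without Control 1. Tpx2, which activates Aurora A on the spindle, had a gap of 0.66 between the controls and no more than -0.01 between the groups. The kinesins Kif11, Kif20b, Kif23 and Kif2c had gaps of 0.13 to 0.31, and Kif23 (-0.31) and Kif2c (-0.23) were lower with groups apart, at -0.15 and -0.16 without Control 1. Nusap1, which bundles spindle microtubules, was lower with groups apart (-0.28, and -0.07 without Control 1), and Hmmr and Ckap2, also of the spindle, were at -0.03 and -0.01. Anln, the cleavage furrow scaffold, was at -0.35, but at 0.02 without Control 1. Ect2, which activates RhoA there, was at 0.18, and at 0.05 without Control 2 or without Ift88-deleted 2.

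Probe sets of 1 gene did not always go together, and the mean over them lies between. Of the 45 members with several probe sets, Control 1 was above Control 2 in every probe set of 25, below it in every one of 1 (Cdc45), and the signs were mixed in 19. By probe set, Control 1 was the highest array for 54 of 77 in G2/M and 37 of 64 in S phase, where it was for 30.4% of all probe sets. In Cdca3, whose mean gap was near 0, 1 probe set had a gap of 0.81 and another of -0.50. Tacc3 (0.95 to 1.12) and Rfc4 (0.99 to 1.10) were even. Differences between the groups were uneven too, so a gene mean near 0 can hold opposite signs. They ran from -0.52 to 0.55 in Cenpa, -0.42 to 0.29 in Cenpf, -0.41 to 0.37 in Aurka and -0.25 to 0.40 in Mcm7. Those of Tacc3 (-0.44 to -0.21) and Cdca8 (-0.78 to -0.44) kept their sign. In Ccna2 (-0.68 and -0.08) and Ccne1 (-0.35 and -0.02) the sign was kept, but 1 probe set held most of the difference. Tested by itself, no member probe set passed, the lowest adjusted p being 0.684 for one of Kif23 (-0.52).

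Other replication and mitosis genes, outside the member list, were also mostly high in Control 1. Of 50 other replication genes 39, and of 78 other mitosis genes 53, were highest in Control 1, with median gaps between the controls of 0.38 and 0.40. None of them passed over all genes, and at an unadjusted p under 0.05 each list had 3 lower (6% and 3.85%, where 3.68% of all genes were) and 0 higher genes. Their median differences of -0.11 and -0.10 were 0.04 and 0.07 without Control 1. By unadjusted p the first replication genes were Gmnn, geminin, the inhibitor of Cdt1 (-0.85, SE 0.28), Pold1, of polymerase delta (-0.47) and Prim2, the large primase subunit (-0.36), and the first mitosis genes Fbxo5, an inhibitor of the anaphase-promoting complex (-0.45, SE 0.14), Spc24, of the Ndc80 complex (-0.56) and Cks2, a Cdk1 subunit (-0.73). Fbxo5 had equal values of 0.18 in both controls, against -0.18 and -0.38 in the Ift88-deleted arrays. Gmnn was at -0.19 and -0.27, against 1.05 and 0.19. Without Control 1 the differences of Gmnn, Pold1, Spc24 and Cks2 were -0.42, -0.28, -0.30 and -0.29. In the next lists, too, none passed over all genes. Of 16 subunits and partners of the anaphase-promoting complex 15 were below 0 (median -0.12), as were 51.9% of all genes, led by Anapc13 (-0.53), Anapc4 (-0.48) and Anapc10 (-0.38). Without Control 1, 10 of the 16 were below 0 (median -0.05), with Anapc13 at -0.34 and Anapc10 at -0.16. Of 16 regulators of the Rb, E2F and DREAM group 2 were below 0 (median 0.10, and 0.21 without Control 1) and 2 were highest in Control 1, with Tfdp1, the E2F partner, at 0.36 (SE 0.13), Mybl1 at 0.29 and Rbbp4 at 0.28.

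Other features moved with the arrays, and their part in these results was not tested. The lists of erythroid, myeloid and osteoclast markers, among others, ran opposite to the division genes across the controls. The 12 erythroid genes had medians of -0.15 and 0.16 in the Ift88-deleted arrays, against -0.25 in Control 1 and 0.41 in Control 2. The 16 myeloid genes had -0.08 and 0.08, against -0.26 and 0.39, and the 8 osteoclast genes -0.21 and 0.14, against -0.20 and 0.35. Control 1 was above Control 2 in 0, 3 and 0 of these genes. It was so in 4 of 10 B lymphoid and 2 of 6 osteoblast genes, with smaller median gaps of -0.13 and -0.05. The direction was not particular to these lists. Control 1 was above in 0 of 8 resting zone and articular genes (median gap -1.12) and 1 of 8 endothelial genes (-0.34). The counts were 2 of 7 hypertrophic (-0.33), 4 of 15 muscle (-0.25) and 3 of 8 perichondrial genes (-0.32). Chondrocyte markers went the other way, with 13 of 17 (0.06). The 8 resting zone and articular genes stood at -0.09 and -0.17 in the Ift88-deleted arrays, against -0.02 in Control 1 and 0.97 in Control 2, where Prg4, lubricin of the joint surface, was at 7.52. Medians of the 17 chondrocyte markers lay between -0.09 and 0.05 on all 4 arrays, and without levels it cannot be said which defining markers of any type are at 0. B lymphoid, endothelial, osteoblast, perichondrial and muscle markers had medians in Control 1 of -0.06, -0.19, -0.06, -0.19 and -0.04, and in Control 2 of 0.01, 0.17, 0.20, 0.00 and 0.23. Hypertrophic markers were at 0.61 and -0.35 in the Ift88-deleted arrays, against -0.17 and 0.04 in the controls.

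**Figure D4:**
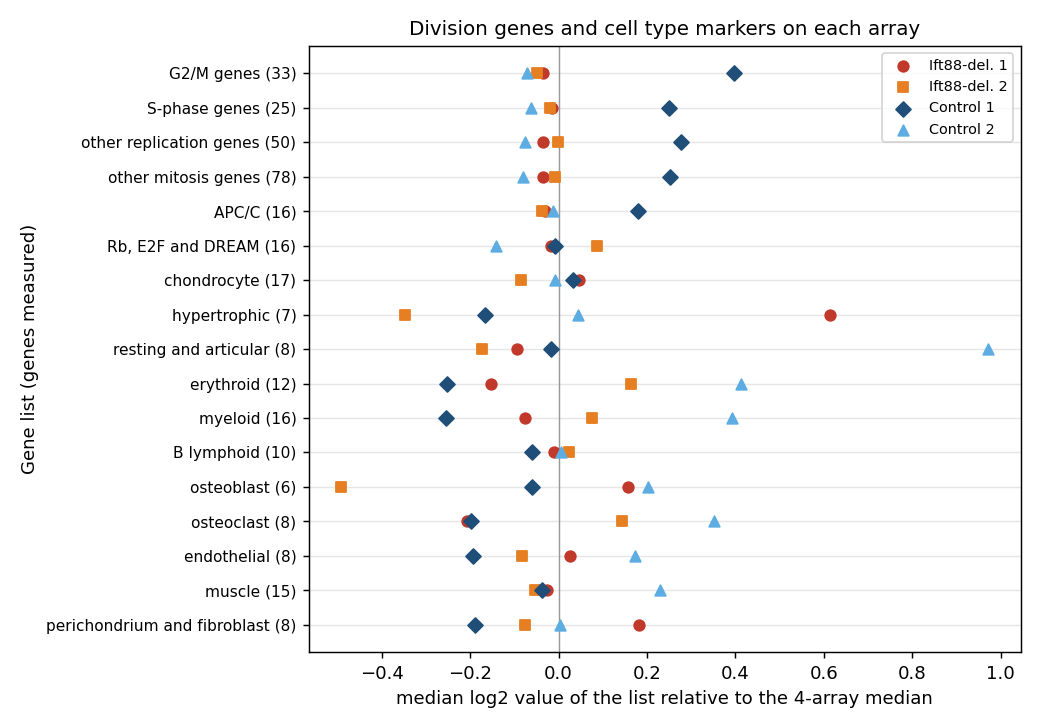
Median log2 value relative to the 4-array median for each gene list (rows, with the number of genes measured) on the 2 Ift88-deleted and the 2 control arrays. Control 1 (dark blue diamonds) is the highest array for both member lists (0.40 and 0.25), and Control 2 (light blue triangles) is the highest for the resting and articular (0.97), erythroid (0.41) and myeloid (0.39) lists.

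Facts of the whole set bear on these values. Control 1 also had the widest spread over genes (SD 0.25, against 0.15 to 0.19 in the other arrays). After the arrays' distributions were made alike again, the gap between the controls had medians of 0.35 in G2/M and 0.29 in S phase, against 0.0002 for all genes. Control 1 was then highest in 29 of 33 and 19 of 25, against 5059 of all 18193 genes. The difference between 3′ and 5′ control probe sets of Actb was -0.10 and -0.14 in the Ift88-deleted arrays, against 0.10 and -0.05 in Control 1 and 2. That of Gapdh was -0.07 and -0.40, against -0.18 and 0.07, so the order of the controls was the other way round. That of 18S was -0.09 and -0.20, against 0.13 and 0.03, with the controls in the order of Actb. The part of such differences in these results was not tested. The probe set of Ift88 gave 0.22 and -0.07, against 0.07 and -0.08, with its place relative to the deleted exons not analysed here. The 2 genes called over the whole set were Xist and Eif2s3y, both sex-linked. Xist was at -3.79 and -3.61 in the Ift88-deleted arrays, against 3.58 and 3.74 in the controls. Eif2s3y went the other way, at 1.80 and 1.55, against -1.55 and -1.78. Sex by these genes and genotype thus cannot be told apart, while each gene had the same direction in both controls.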

How the data were processed

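The authors deposited 1 table of log2 values, made with RMA per the submitters' processing notes, with no version or log base given in the sources used here. Each probe set's median over the 4 arrays is 0 in it, so levels are lost. Per the labels' protocols, RNA was amplified in a two-cycle protocol. Of 45037 non-control probe sets, 34945 name 1 gene, and their mean per gene gave 18193 genes, with symbols from RefSeq (GRCm38.p6) for 34741 probe sets. Groups were compared with limma 3.58.1 (R 4.3.3), on the group alone, with eBayes and Benjamini-Hochberg adjustment over all genes, called at 0.05. An exact permutation test of 2 against 2 cannot go below p = 0.333. The series' design text names biological replicates without saying how many mice made each. The p-values set a difference against the spread between these samples, which eBayes pools in part over all genes. The number of arrays limits the precision. Named with values are fixed genes and, per phase, the 6 largest differences between groups, the 6 largest between controls and those with groups apart and p under 0.05, and of other division lists 3 genes each by p. Fen1, Nuf2 and Prg4 were added, and further members named by their differences, after their values were seen. Members and lists were chosen with earlier results of these data known. The fit was tested on simulated data. Alternatives were the normalization, array centring, moderation, the choice of probe set, the replicate block, the threshold and leaving out each array.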

Additional observations from a re-analysis of the deposited data

How the results depend on the processing

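No S-phase or G2/M member was called under any setting tried, and the lowest adjusted p of the 24 named members was 0.2. The count over all genes, 2, was 14 after renewed quantile normalization, 1 without moderation, 1 with the replicate number as a block, 9 by the probe set with the widest range, 20 by single probe set, 11 at an adjusted p under 0.1 and 2 to 56 as single arrays were left out. The replicate block changed no other call or direction, and the numbers are shared by name only. The S-phase median was -0.25 by the widest probe set. Renewed quantile normalization gave a G2/M median of -0.17, with 26 of 33 members below 0. Over all genes, counts below 0 were made only in the main setting and without Control 1. Leaving out 1 array gave -0.27 to 0.035 for the S-phase median and -0.47 to 0.042 for the G2/M median. Of the members, 10 to 21 in S phase and 14 to 31 in G2/M were below 0, counts added after seeing the data. In the same way signs turned in 31 of the 58 members, among them, of the 24 named by the rule, Aurkb (-0.77 to 0.073), Birc5 (-0.67 to 0.14), Bub1 (-0.72 to 0.18), Ccnb2 (-0.40 to 0.48), Mcm2 (-0.41 to 0.024), Mcm4 (-0.34 to 0.31), Prim1 (-0.48 to 0.082), Tacc3 (-0.85 to 0.18) and Top2a (-0.24 to 0.20). Renewed quantile normalization turned Mcm4 (0.047) and Top2a (0.028), and the widest probe set Top2a (0.066). The cause was not tested. Signal over background was not available to limit dim probe sets.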
